A study of Mus musculus with 8 samples.

Results

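The D-type cyclins and cyclin-dependent kinases (CDKs) 4 and 6 form the enzymes that carry a cell through the G1 phase, and the INK4 and CIP/KIP inhibitors hold these enzymes back. The set described here holds the 3 D-type cyclins (Ccnd1, Ccnd2 and Ccnd3), Cdk4 and Cdk6, the 4 INK4 inhibitors (Cdkn2a, Cdkn2b, Cdkn2c and Cdkn2d) and Cdkn1b, the CIP/KIP inhibitor p27. These 10 genes were taken by symbol from the 53465 genes of the count table, and all 10 were among the 14369 genes with enough counts to be tested. They were compared between mesenchymal stem cells (MSCs, stromal cells that can form bone, fat and cartilage) of mouse bone cultured at 2% oxygen (hypoxia, 4 samples) and at 21% oxygen (normoxia, 4 samples). The donors were wild-type male C57BL/6N mice, aged 3 to 5 months. Both groups were kept at 37 °C with 5% CO2 in the same medium and, per the labels, passed through cell sorting on day 12 for MSCs that carried Sca-1 and CD140a and lacked CD45 and Ter-119. The study's methods describe hypoxic culture of every preparation up to the sort, division of the sorted cells between the oxygen levels, and about a week of culture in either. By that account the groups share the hypoxic outgrowth, although the labels can also be read as giving the oxygen levels from the start of culture, and another passage of the study puts the sort earlier. The samples are cultured cells of a sorted fraction, which limits them as a model of the marrow.

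In G1, extracellular growth signals raise D-type cyclins, which bind CDK4 or CDK6. The active kinase phosphorylates the retinoblastoma protein and its relatives (the pocket proteins), and E2F factors are then free to switch on the genes of DNA synthesis. INK4 proteins bind CDK4 and CDK6 and keep cyclin D away, whereas p27 and the other CIP/KIP proteins mainly restrain CDK2 bound to cyclin E. In stem and stromal cells this module sets the choice between division and arrest, and Cdkn2a is known as a marker of senescence in cultured cells.

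Cdk4, Ccnd3 and Cdkn2a were lower in normoxia, at 0.760, 0.780 and 0.713 of their hypoxia levels, and no gene of the set was called higher. Ccnd2, the most abundant of the 10 per length of transcript, and Cdkn2b, the neighbour of Cdkn2a, were not called. By limma-trend with Benjamini-Hochberg adjustment over all tested genes, 34.6% of all genes were called at the threshold of 0.05, with 18.0% higher and 16.5% lower in normoxia. The 3 of 10 called in the set thus amount to a share close to that of all genes. The median log2 change of the 10 genes was -0.15, whereas the median over all tested genes was 0.005. At an unadjusted p-value of 0.05 the count of genes called higher stayed at 0, and edgeR, DESeq2 and limma-voom also gave 0.

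With the replicate number as a block in the model, since same-numbered samples deviated together, Ccnd1 was called higher and Cdkn2c lower as well, which gave 5 of 10. In that fit 46.0% of all genes were called, of which 23.3% of genes were higher and 22.7% lower. When transcript GC content and length were also corrected for, 7 of 10 were called, against 43.2% of all genes. Of these, 5 were lower and 2 higher (Ccnd1 and Cdkn2b), and Cdkn2c lost its call. With the correction but no block, Cdkn2a was not called (-0.19, adjusted p = 0.12). Log2 changes fell with transcript GC content across all genes (Spearman's rho = -0.39, a description across genes, which are not independent), and the GC content of the longest transcript ranged from 43.1% for Cdkn1b to 60.2% for Cdkn2a. The part of GC content in these changes was not tested beyond this correction, which would also remove a true change that follows GC content.

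Total counts ran from 12898291 to 25132141 per sample, with hypoxia replicate 1 the deepest, and no difference between the groups was detected (exact permutation test, two-sided, p = 0.80). The MSC marker list was present with 8 of 8 genes tested, and its summed level ran from 53200 to 61300 CPM (counts scaled to library size) in hypoxia and from 34000 to 36300 CPM in normoxia, most of it from Col1a1, a bone and stromal collagen (log2 change -0.74, adjusted p = 0.0038). Without the block no other gene of that list was called lower, whereas Cd44 (0.72, adjusted p = 0.013) and Itgb1 (0.44, adjusted p = 0.0010) were higher in normoxia. Pdgfra, which encodes the sorted CD140a, changed by 0.24 (adjusted p = 0.075). Ly6a, which encodes the sorted Sca-1, changed by -0.14 (adjusted p = 0.26). With the replicate block Pdgfra was called higher (adjusted p = 0.00087) and Ly6a lower (adjusted p = 0.021). Thy1 (-0.41, adjusted p = 6e-07) and Pdgfrb (-0.15, adjusted p = 0.012) were also called lower in that fit, whereas Prrx1 was not called (adjusted p = 0.27). Erythroid markers were at 0 counts in every sample, whereas the 6 blood and macrophage markers summed to 467 to 922 CPM in hypoxia and 580 to 1080 CPM in normoxia. Among these 6 only Lyz2 was called, higher in normoxia (0.56, adjusted p = 0.022). With the replicate block Lyz2 stayed higher. In that fit Csf1r (-0.59, adjusted p = 6.7e-09), Itgam (-0.46, adjusted p = 0.0011) and Cd68 (-0.28, adjusted p = 0.0028) were called lower. The 3 chondrocyte markers summed to 4800 to 6520 CPM in hypoxia and 3920 to 4690 CPM in normoxia, most of it from Comp. Col2a1 was called lower (-0.33, adjusted p = 0.023), whereas Comp (-0.35, adjusted p = 0.06) and Acan (0.29, adjusted p = 0.52) were not called. With the replicate block Col2a1 (adjusted p = 8.1e-06) and Comp (adjusted p = 3.5e-05) were called lower, and Acan was not called (adjusted p = 0.09). Endothelial markers summed to at most 2.65 CPM and adipocyte markers to at most 5.16 CPM, and those of mature osteoblasts to 12.3 to 24.3 CPM in hypoxia and 5.72 to 16.4 CPM in normoxia. The part of these markers in the results below was not tested. Among them are Col1a1, Cd44, Itgb1, Lyz2, Col2a1 and the chondrocyte sum, which differed between the groups, and the markers called only with the block. Fewer cells of a type and less RNA per cell cannot be told apart in bulk samples. Within each group no libraries were copies of each other, since counts of any pair of replicates differed by a chi-square of at least 3.70 per degree of freedom. Pairs across the groups were not compared in this way.

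The promoters of the called genes are shown because these are the genes on which the results turn, with Cdkn2b added as the neighbour of Cdkn2a. Each line gives the 250 bases before a start site, 5′ to 3′ on the strand of the gene, from the RefSeq promoter table (GRCm38.p6), in which 8 of the 10 genes had 11 start sites. Capitals mark the letters CACGTG (the E-box read by MYC and related factors) or 1 of 4 E2F-type words (TTTCCCGC, TTTCGCGC, TTTGCCGC and TTTGGCGC), searched on both strands. The letters ACGTG, the core that hypoxia-inducible factors read, were also searched.
Cdk4 (chr10:127063285-127063534, plus strand): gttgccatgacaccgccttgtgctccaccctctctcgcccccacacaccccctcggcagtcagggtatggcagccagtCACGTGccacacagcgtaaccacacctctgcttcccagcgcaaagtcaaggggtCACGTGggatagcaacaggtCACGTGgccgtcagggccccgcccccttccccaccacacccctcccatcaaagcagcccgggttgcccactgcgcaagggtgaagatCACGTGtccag
Ccnd3, upstream start (chr17:47504801-47505050, plus strand): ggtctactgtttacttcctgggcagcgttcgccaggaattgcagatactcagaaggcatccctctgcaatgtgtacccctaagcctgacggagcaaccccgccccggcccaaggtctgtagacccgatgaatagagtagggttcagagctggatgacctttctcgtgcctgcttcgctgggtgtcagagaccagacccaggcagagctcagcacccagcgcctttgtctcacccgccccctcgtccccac
Ccnd3, downstream start (chr17:47593217-47593466, plus strand): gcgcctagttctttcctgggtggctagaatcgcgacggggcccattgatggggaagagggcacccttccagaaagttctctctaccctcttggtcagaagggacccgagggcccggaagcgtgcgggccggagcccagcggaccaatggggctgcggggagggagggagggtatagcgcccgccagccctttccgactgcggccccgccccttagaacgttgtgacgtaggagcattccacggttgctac
Cdkn2a, start for p19Arf (chr4:89294620-89294869, minus strand): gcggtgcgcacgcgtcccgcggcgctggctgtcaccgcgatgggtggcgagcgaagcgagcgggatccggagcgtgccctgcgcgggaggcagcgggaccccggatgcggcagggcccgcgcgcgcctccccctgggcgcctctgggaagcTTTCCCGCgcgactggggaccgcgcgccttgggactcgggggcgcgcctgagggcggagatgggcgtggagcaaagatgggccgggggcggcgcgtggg
Cdkn2a, start for p16Ink4a (chr4:89282193-89282442, minus strand): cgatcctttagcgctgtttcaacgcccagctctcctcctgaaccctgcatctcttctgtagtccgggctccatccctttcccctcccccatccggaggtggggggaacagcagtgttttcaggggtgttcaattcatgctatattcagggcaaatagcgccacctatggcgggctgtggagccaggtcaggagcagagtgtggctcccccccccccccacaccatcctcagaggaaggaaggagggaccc
Cdkn2b (chr4:89311033-89311282, minus strand): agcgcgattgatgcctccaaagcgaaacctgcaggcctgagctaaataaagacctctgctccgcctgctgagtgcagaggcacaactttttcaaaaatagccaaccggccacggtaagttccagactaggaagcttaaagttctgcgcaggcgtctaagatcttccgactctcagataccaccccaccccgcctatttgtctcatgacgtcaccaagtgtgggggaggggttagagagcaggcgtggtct
The Cdk4 window held 4 E-boxes, and each E-box also holds ACGTG on either strand, with no further copy of that core in the window. Of 32851 promoter windows of the same length, 6.02% held an E-box and 16.6% held the core. The window before the upstream start of Cdkn2a, which gives the p19Arf transcript, held 1 E2F-type word, as did 1.86% of all windows. None of these letters was found in the window before the start for p16Ink4a, in that of Cdkn2b or in either window of Ccnd3. Among the windows not shown, that of Cdk6 held 1 E-box and the downstream one of Cdkn2c held 2 copies of the core. The letters are a description of these windows and not evidence of binding.

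Ccnd1 (ENSMUSG00000070348, chromosome 7, 144929931 to 144939925, minus strand) encodes cyclin D1, the D-type cyclin that responds most directly to mitogens. Its levels, in CPM scaled by the trimmed mean of M-values (TMM), were 334, 282, 388 and 319 in hypoxia replicates 1 to 4. In normoxia replicates 1 to 4 they were 369, 343, 408 and 364. The groups overlapped through the high value of hypoxia replicate 3, although each normoxia sample was above the hypoxia sample of its number. The log2 change (normoxia minus hypoxia, as in all that follows) was 0.17 (SE 0.089, adjusted p = 0.16), and the block brought the adjusted p to 0.0059. Without hypoxia replicate 3 the change was 0.25 (adjusted p = 0.038), and with scaling to total counts alone, which moved the median of all genes to 0.089, it was 0.26 (adjusted p = 0.038). Of the exon bases of Ccnd1, 23.4% are shared with LTO1 on the opposite strand, whose own change was 0.16 (adjusted p = 0.24), and whether the authors' counting used strand is not given in the sources used here.

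Ccnd2 (ENSMUSG00000000184, chromosome 6, 127125162 to 127152193, minus strand) encodes cyclin D2. It was measured at 1040, 1060, 1030 and 1020 CPM in hypoxia and at 1160, 1100, 1070 and 1090 CPM in normoxia. All 4 normoxia values lay above all 4 hypoxia values, as was the case in 1 direction or the other for 32.6% of all tested genes. The log2 change of 0.09 (SE 0.057) did not pass the test (adjusted p = 0.25), and its 95% confidence interval ran from -0.03 to 0.21. Scaling to total counts alone gave 0.18 (adjusted p = 0.023), and the GC and length correction brought the change to 0. Its antisense neighbours Gm43126 and 9330179D12Rik had at most 11 counts in a sample.

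Ccnd3 (ENSMUSG00000034165, chromosome 17, 47505051 to 47599691, plus strand) encodes cyclin D3, which many differentiating tissues retain when they leave the cell cycle. Levels were 73.6, 69.9, 80.5 and 78.4 CPM in hypoxia and 57.2, 58.4, 61.6 and 58.2 CPM in normoxia. The groups did not overlap, and the highest normoxia sample was below the lowest hypoxia sample. The log2 change was -0.36 (SE 0.062, adjusted p = 0.0011), and Ccnd3 passed the threshold under all 24 alternatives, which ranged from -0.40 to -0.23. The smallest change came from correcting for GC content and length, at -0.23 both without the block (adjusted p = 0.010) and with it (adjusted p = 0.00083). The near-identical copy Ccnd3-ps, with 417 bases at 96.6% identity, had at most 2 counts in a sample. Bysl, on the opposite strand, shares 4.11% of the exon bases of Ccnd3 and had a change of 0.16 (adjusted p = 0.37).

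**Figure D1:**
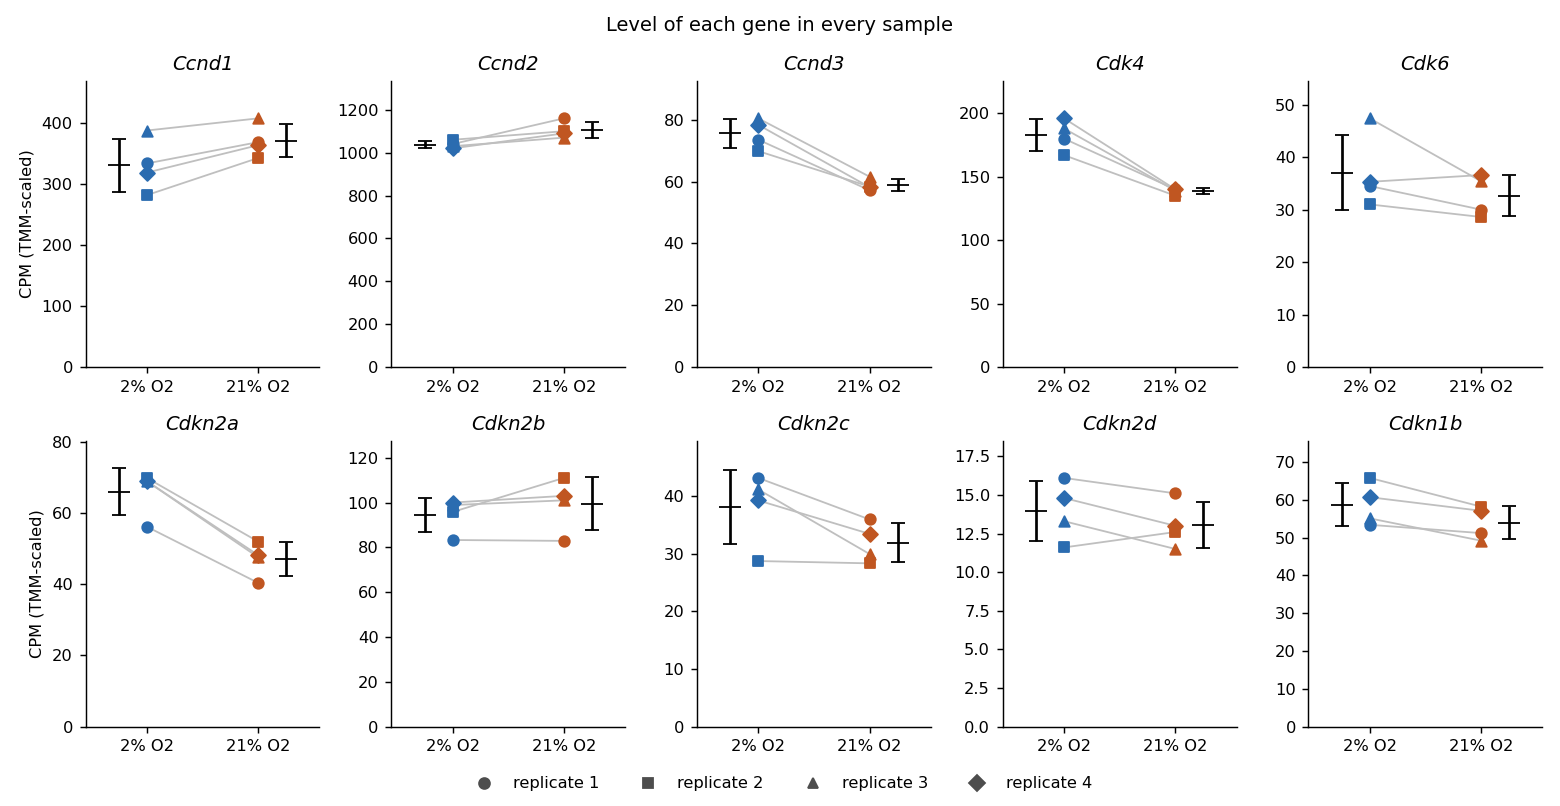
Level of each of the 10 genes in TMM-scaled CPM (vertical axis, from 0) in the 4 samples at 2% oxygen (blue) and the 4 at 21% oxygen (orange). Grey lines join same-numbered samples, marker shapes give the replicate, and black bars are the mean and SD (n = 4). Cdk4, Ccnd3 and Cdkn2a show lower normoxia groups that do not overlap the hypoxia groups, and the Ccnd2 groups are separated the other way by a small gap.

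Cdk4 (ENSMUSG00000006728, chromosome 10, 127063534 to 127067920, plus strand) encodes the main kinase partner of D-type cyclins in most mesenchymal cells. Its levels were 180, 167, 188 and 196 CPM in hypoxia. In normoxia they were 140, 135, 139 and 140 CPM, which is a narrower spread (SD 2.22, against 12.7 in hypoxia). No normoxia sample reached the lowest hypoxia sample. The log2 change was -0.40 (SE 0.059, adjusted p = 0.00046), the 4 pairs gave -0.36, -0.30, -0.44 and -0.48, and the call held under all 24 alternatives (-0.44 to -0.29). Cdk4 shares 641 exon bases, 19.7% of its own, with Tspan31 on the opposite strand. Tspan31 also fell (log2 change -0.36, adjusted p = 0.00082), from 79.0 to 90.5 CPM in hypoxia to 63 to 65.5 CPM in normoxia, so that reads in the shared bases could belong to either gene. The part of these reads in the change of Cdk4 was not tested.

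Cdk6 (ENSMUSG00000040274, chromosome 5, 3341485 to 3531008, plus strand) encodes the second kinase that D-type cyclins activate, known best from blood cells. Levels were 34.5, 31.0, 47.4 and 35.3 CPM in hypoxia and 30.0, 28.6, 35.4 and 36.6 CPM in normoxia. The groups overlapped and hypoxia replicate 3 stood highest. Gm16505 and Gm42961, which hold near-identical stretches of Cdk6, had 0 counts in every sample. The change of -0.17 (SE 0.12, adjusted p = 0.32) did not pass the test, and its interval from -0.44 to 0.10 includes the change measured for Cdk4. Once GC content and length were corrected for within the blocked model, Cdk6 was called lower (-0.26, adjusted p = 0.0026).

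Cdkn2a (ENSMUSG00000044303, chromosome 4, 89274471 to 89294653, minus strand) encodes p16Ink4a, an inhibitor of CDK4 and CDK6, and, from another first exon and reading frame, p19Arf, which frees p53 by binding MDM2. The counts are per gene and cannot separate the 2 products. Levels were 56.2, 69.9, 69.0 and 69.0 CPM in hypoxia and 40.4, 52.0, 47.6 and 48.2 CPM in normoxia. Replicate 1 was the lowest of each group, and the groups did not overlap. The log2 change of -0.49 (SE 0.092, adjusted p = 0.0018) was the largest in size among the 10 genes, and the pairs gave -0.47, -0.42, -0.53 and -0.52. Cdkn2a also had the highest GC content of the set, and the correction for GC content and length without the block left -0.19 (adjusted p = 0.12), which ended the call. With the block in that correction the change was again -0.19, and it was called (adjusted p = 0.0046).

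Cdkn2b (ENSMUSG00000073802, chromosome 4, 89306299 to 89311039, minus strand) encodes p15Ink4b, an INK4 protein known to respond to TGF-β, and lies 11645 bases from Cdkn2a. Levels were 83.3, 95.8, 98.9 and 100 CPM in hypoxia and 82.9, 111, 101 and 103 CPM in normoxia. Replicate 1 was again the lowest of each group, and the groups overlapped. The change was 0.07 (SE 0.090, 95% confidence interval -0.13 to 0.27, adjusted p = 0.58), and the upper end of the interval for Cdkn2a, -0.29, lay below the lower end of this one. That difference itself was not tested. Correction for GC content and length within the blocked model gave 0.26 (adjusted p = 5.2e-05), a call in the direction opposite to Cdkn2a.

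Cdkn2c (ENSMUSG00000028551, chromosome 4, 109660876 to 109667189, minus strand) encodes p18Ink4c. It was measured at 43.1, 28.7, 41.1 and 39.2 CPM in hypoxia and at 35.9, 28.3, 29.9 and 33.4 CPM in normoxia. Hypoxia replicate 2 fell among the normoxia values, whereas the other 3 hypoxia samples lay above all of them. The change was -0.24 (SE 0.12, adjusted p = 0.14). It was called with the replicate block (adjusted p = 0.0093) and without hypoxia replicate 2 (-0.37, adjusted p = 0.0092), whereas the blocked model corrected for GC content and length gave -0.06 (adjusted p = 0.49).

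Cdkn2d (ENSMUSG00000096472, chromosome 9, 21288410 to 21291407, minus strand), which encodes p19Ink4d, was the least counted of the 10, with 145 to 384 counts a sample. Its levels were 16.1, 11.6, 13.3 and 14.8 CPM in hypoxia and 15.1, 12.6, 11.5 and 13.0 CPM in normoxia. The groups overlapped over most of their range. A change of -0.09 (SE 0.12, adjusted p = 0.60) was not detectable at this spread, and the GC and length correction turned it to 0.10.

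Cdkn1b (ENSMUSG00000003031, chromosome 6, 134920401 to 134925513, plus strand) encodes p27, an inhibitor that is controlled largely through the destruction of its protein. Levels were 53.4, 65.8, 55.1 and 60.7 CPM in hypoxia and 51.2, 58.2, 49.2 and 57.1 CPM in normoxia. The groups overlapped, although the normoxia sample was the lower one in 4 of 4 pairs. The change was -0.12 (SE 0.082, adjusted p = 0.28). Cdkn1b had the lowest GC content of the set, and it was called lower in the blocked model corrected for GC content and length (-0.32, adjusted p = 2.3e-05).

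**Figure D2:**
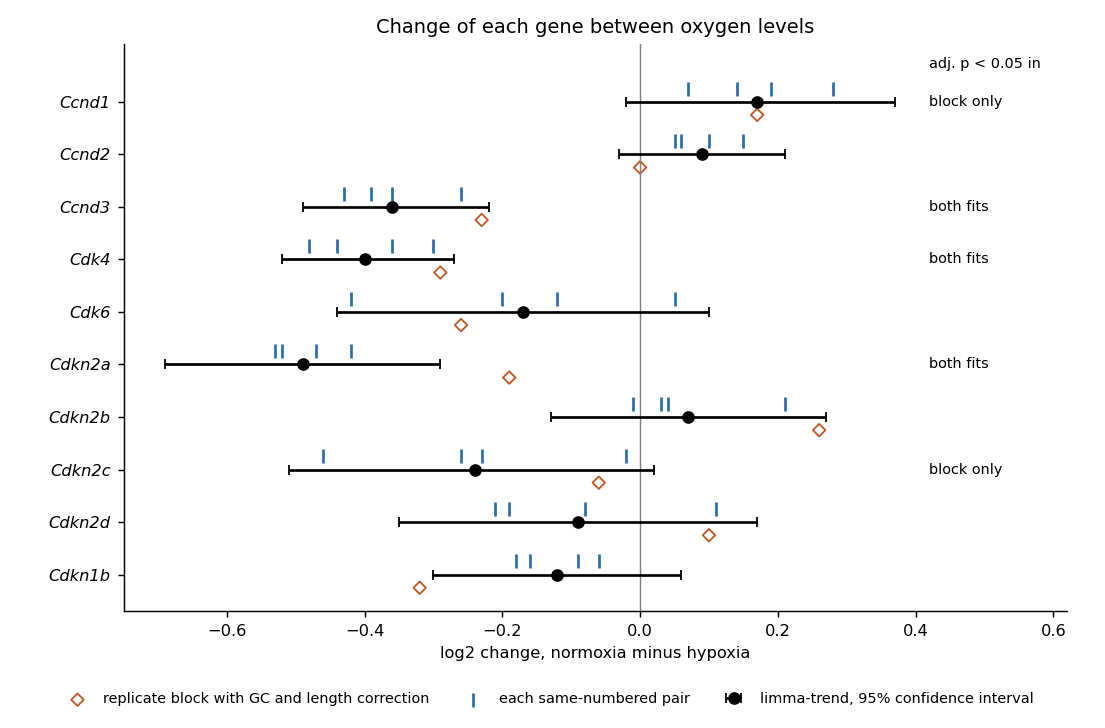
Log2 change of each gene (normoxia minus hypoxia, horizontal axis) from limma-trend with its 95% confidence interval (black), in each same-numbered pair (blue ticks) and in the blocked model corrected for GC content and length (orange diamonds). The intervals of Cdk4, Ccnd3 and Cdkn2a exclude 0, and the orange diamonds lie closer to 0 than the black points for these 3 genes and farther from it for Cdkn1b, Cdkn2b and Cdk6.

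To set levels of different genes side by side, CPM was divided by the kilobases of annotated exon. In hypoxia Ccnd2 was the highest at 110 ± 2.2 CPM per kilobase (SD, n = 4). Ccnd1 (70.3 ± 9.3) and Cdkn2b (68 ± 5.6) followed, and their samples overlapped. Cdkn2a (56.3 ± 5.6) and Cdk4 (56.2 ± 3.9) were next and overlapped each other. Cdkn2c (14.2 ± 2.4) and Cdkn1b (12.9 ± 1.2) overlapped, as did Cdkn2d (8.87 ± 1.2) and Ccnd3 (8.61 ± 0.55), and Cdk6 was the lowest at 2.65 ± 0.51.

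In normoxia the order was the same but for Cdk4 (42.6 ± 0.68) and Cdkn2a (40.1 ± 4.1), which changed places within their overlap, and Ccnd3 (6.70 ± 0.22) no longer overlapped Cdkn2d (8.30 ± 0.96). Cdk4 thus supplied most of the kinase RNA at both oxygen levels, and Cdk6 made up 4.49% ± 0.70 of the pair in hypoxia and 5.18% ± 0.55 in normoxia, with overlap. The order depends on the length used. The annotated exons of Ccnd3 cover 8775 bases and its longest transcript 3858, and per kilobase of longest transcript Ccnd3 stood above Cdkn2d, Cdkn1b and Cdkn2c in both groups, at 19.6 ± 1.2 CPM in hypoxia and 15.2 ± 0.49 in normoxia. On that scale, chosen after the data were seen, Ccnd2 stayed the highest and Cdk6 the lowest, and Cdk4 (89 ± 6.2) came next to Ccnd2 in hypoxia, with overlap with Ccnd1 (88.5 ± 12).

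Shares within the families are descriptions and were not tested. Cdkn2a made up 35.8%, 40.7%, 38.3% and 38.0% of the summed INK4 level per length in hypoxia and 29.4%, 31.0%, 30.8% and 30.2% in normoxia. The share of Cdkn2b was 44.7%, 47.0%, 46.3% and 46.5% in hypoxia and 51.0%, 56.0%, 55.2% and 54.6% in normoxia. Neither share overlapped between the groups, whereas those of Cdkn2c and Cdkn2d did. Per longest transcript Cdkn2a made up 44.1% ± 2.2 and 35.9% ± 0.87, and Cdkn2b 40.7% ± 0.78 and 48.9% ± 2.0. The summed INK4 level itself was 147 ± 9.6 CPM per kilobase in hypoxia and 132 ± 11 in normoxia, and overlapped.

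Ccnd3 made up 4.55% ± 0.21 of the summed D-type cyclin level per length in hypoxia and 3.30% ± 0.12 in normoxia, with no overlap. Per longest transcript its share was 7.20% ± 0.33 and 5.28% ± 0.19. The summed D-type cyclins, carried by Ccnd2 and Ccnd1, were at 189 ± 8.6 and 203 ± 5.6 CPM per kilobase and overlapped. Summed Cdk4 and Cdk6 were at 58.9 ± 4.2 CPM per kilobase in hypoxia and 45 ± 0.89 in normoxia, and did not overlap. The ratio of cyclin to kinase RNA was accordingly 3.30, 3.38, 3.27 and 2.94 in hypoxia and 4.60, 4.50, 4.59 and 4.36 in normoxia. Every normoxia ratio was above every hypoxia ratio, also per longest transcript (2.96 ± 0.18 in hypoxia against 4.11 ± 0.095 in normoxia). Most of the kinase RNA is Cdk4, and the part of reads shared with Tspan31 and of GC content in this ratio was not tested. INK4 RNA per kinase RNA (2.51 ± 0.17 against 2.94 ± 0.28) and Cdkn1b RNA per kinase RNA (0.221 ± 0.034 against 0.264 ± 0.024) overlapped between the groups.

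**Figure D3:**
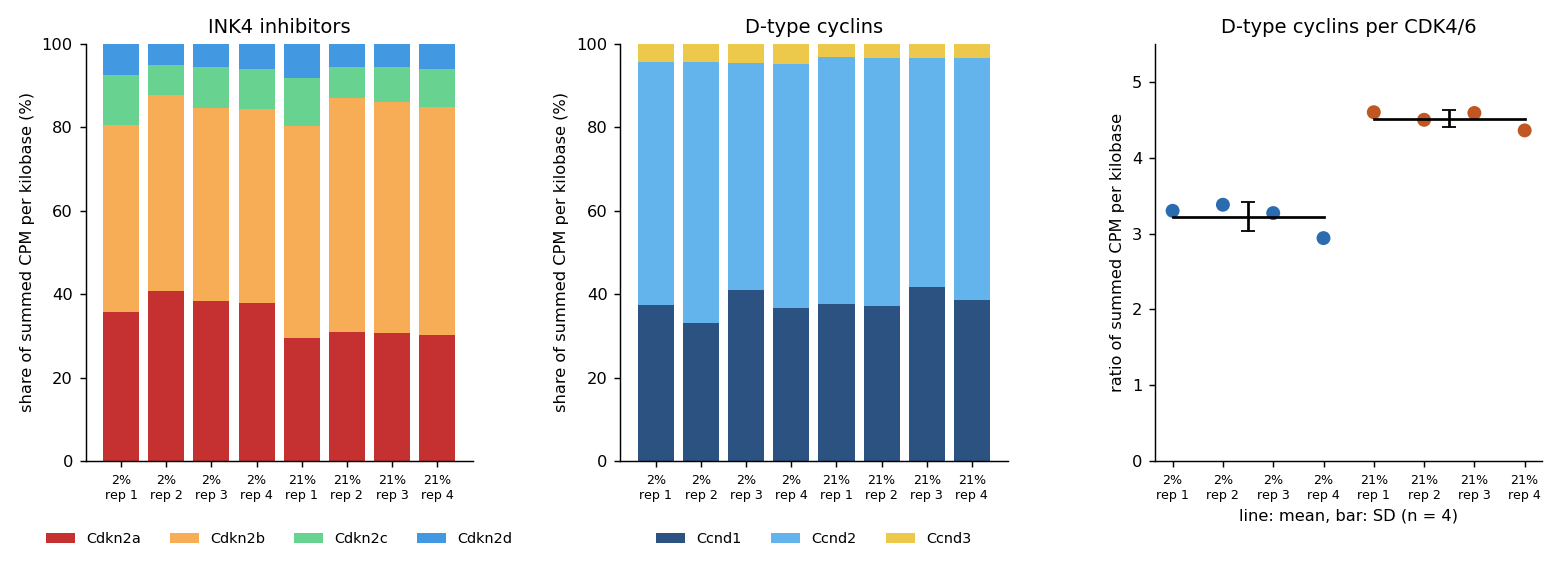
Share of each INK4 inhibitor (left) and each D-type cyclin (middle) in the summed CPM per kilobase of its family, in percent, and the ratio of summed D-type cyclins to summed Cdk4 and Cdk6 (right, with mean and SD), for the 8 samples. The Cdkn2a and Ccnd3 bands are narrower in the 4 normoxia samples, and the ratio lies between 2.94 and 3.38 in hypoxia and between 4.36 and 4.60 in normoxia.

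The genes around the set were described with 9 lists of 63 genes, all of them tested. Of these, 17 were called higher and 2 lower in normoxia, 30.2% in all, which is near the 34.6% of all tested genes (18.0% higher and 16.5% lower), and the median change was 0.04. With the replicate block, 22 were higher and 4 lower, 41.3% against 46.0% of all genes. Corrected for GC content and length as well, 17 were higher and 10 lower, 42.9% against 43.2% of all genes. In that last model Rbl1, Mnat1 and Rnf2 lost their calls. Of the genes named below that had not been called in the main fit, E2f1 (0.19, adjusted p = 0.020) and Top2a were called higher. Cdk2 (-0.21, adjusted p = 0.043), Bmi1, Npm1 (-0.16, adjusted p = 0.0024), Ccna2, Mcm6 and Tyms were called lower. Among the targets and partners next in line, Ccne1 and Ccne2, the E-type cyclins that activate CDK2, were both higher. Ccne1 was at 10.7 to 15.5 CPM in hypoxia and 16 to 22.4 CPM in normoxia (log2 change 0.58, SE 0.13, adjusted p = 0.0057), with no overlap. Ccne2 changed by 0.69 (adjusted p = 0.023), and Cdk2 (-0.16) and Cdc25a (0.18), a phosphatase that activates CDK2, did not pass the test.

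The other CIP/KIP inhibitors moved in opposite directions. Cdkn1a (p21), a target of p53 that was abundant here, was at 311, 342, 367 and 323 CPM in hypoxia and at 395, 394, 411 and 347 CPM in normoxia (0.20, SE 0.070, adjusted p = 0.041). Cdkn1c (p57) was at 2.93, 5.46, 4.53 and 6.09 CPM in hypoxia and at 1.71, 3.89, 1.88 and 2.41 CPM in normoxia (-0.91, SE 0.27, adjusted p = 0.021). For both, 1 normoxia sample lay within the hypoxia range. Cdkn1c had 23 to 79 counts a sample, and the moderated scale understates changes at such counts.

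Of the pocket proteins, Rbl1 (p107, 0.40, adjusted p = 0.023) and Rbl2 (p130, 0.41, adjusted p = 0.010) were higher. Rb1, the retinoblastoma gene, changed by 0.25 (adjusted p = 0.067, or 0.029 in the blocked model). With the correction for GC content and length in the blocked model, Rb1 changed by 0.02 (adjusted p = 0.85) and Rbl1 by 0.19 (adjusted p = 0.10). Among 10 E2F and DP genes, E2f3, an activator of S-phase genes (0.22, adjusted p = 0.044), and E2f6, a repressor that works with Polycomb proteins (0.51, adjusted p = 0.0027), were higher. E2f1 changed by 0.01 (adjusted p = 0.94) and E2f2 by -0.34 (adjusted p = 0.23). Of this list 20% was called, against 34.6% of all genes. The share was 30% with the block, against 46.0%, and 50% with the block and the correction, against 43.2%.

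Of 10 genes for the turnover of p27 and D-type cyclins, Cul1, the scaffold of the SCF ubiquitin ligases, was at 49.2 to 61.5 CPM in hypoxia and 77.6 to 82.6 CPM in normoxia (0.53, adjusted p = 0.00036). Fbxw7, which directs an SCF ligase to cyclin E, changed by 0.56 (adjusted p = 0.011). Skp2, which directs it to p27, changed by 0.13 (adjusted p = 0.59), and its cofactor Cks1b by -0.16 (adjusted p = 0.34). In the main fit 20% of this list was called, against 34.6% of all genes. With the replicate block 3 of these genes were higher and 2 lower, 50% against 46.0% of all genes. With the GC and length correction as well, 30% were called, against 43.2% of all genes. Of the CDK-activating kinase, Cdk7 (0.36, adjusted p = 0.0030) and its assembly factor Mnat1 (0.38, adjusted p = 0.0061) were higher, whereas Ccnh (0.04, adjusted p = 0.80) and Cdc37 (0.03, adjusted p = 0.72), a chaperone partner of CDK4, did not pass the test. Mnat1 was at 0.13 (adjusted p = 0.18) in the blocked model with the correction.

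**Figure D4:**
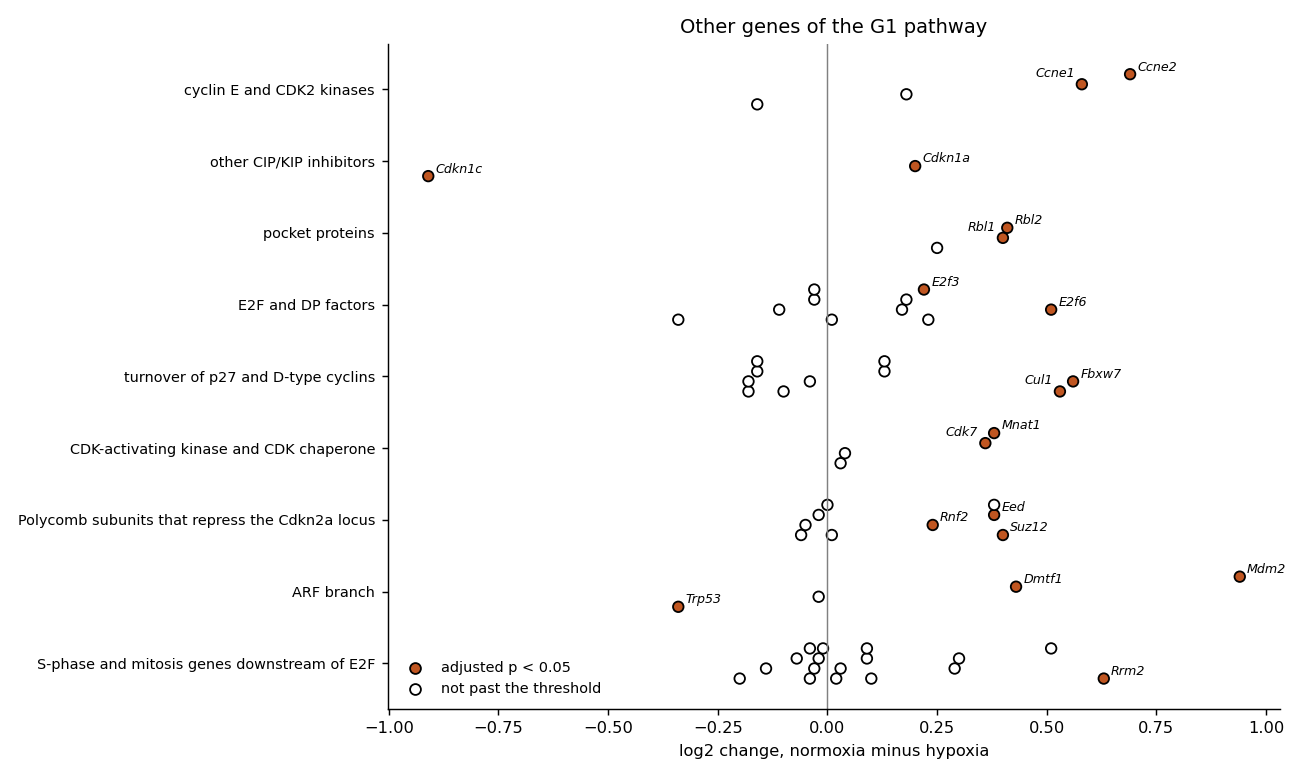
Log2 change (normoxia minus hypoxia, horizontal axis) of the 63 genes in 9 lists (rows), with genes at an adjusted p under 0.05 filled and named. There are 17 named points to the right of 0 and 2 to the left (Cdkn1c and Trp53), and in the S-phase and mitosis row only Rrm2 is named.

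Polycomb proteins are known to hold the Cdkn2a locus silent in young cells. Of 9 Polycomb genes, 3 were called (33.3%, against 34.6% of all genes), each of them higher in normoxia. They were Suz12 (0.40, adjusted p = 0.0045) and Eed (0.38, adjusted p = 0.015), core subunits of the H3K27 methyltransferase complex, and Rnf2 (0.24, adjusted p = 0.025), a ubiquitin ligase of the other main complex. Bmi1 was at 46.2 to 55.7 CPM in hypoxia and 48.6 to 52.3 CPM in normoxia (0.01, adjusted p = 0.96). In the blocked model corrected for GC content and length, 2 of the list were higher and 1 lower, 33.3% against 43.2% of all genes. There Rnf2 changed by 0.01 (adjusted p = 0.92), Suz12 by 0.18 (adjusted p = 0.021), Eed by 0.34 (adjusted p = 0.0011) and Bmi1 by -0.22 (adjusted p = 0.0026).

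In the ARF branch, Mdm2, the ubiquitin ligase that p19Arf restrains and a target of p53, showed the largest rise of the 9 lists. It was at 64.6, 61.1, 55.5 and 57.2 CPM in hypoxia and at 119, 116, 113 and 109 CPM in normoxia (0.94, SE 0.063, adjusted p = 9.8e-06). Dmtf1, an activator of the Arf promoter, was also higher (0.43, adjusted p = 0.017). Trp53, the gene of p53 itself, was lower, from 87.6 to 104 CPM in hypoxia to 73.0 to 79.2 CPM in normoxia (-0.34, SE 0.065, adjusted p = 0.0018). Npm1, a nucleolar partner of p19Arf, changed by -0.02 (adjusted p = 0.88).

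The last list held 17 genes of S phase and mitosis that E2F factors control, and 1 of them, 5.88%, was called, against 34.6% of all genes. This was Rrm2, a subunit of ribonucleotide reductase, at 130, 65.1, 78.3 and 74.8 CPM in hypoxia and 194, 109, 128 and 104 CPM in normoxia (0.63, SE 0.21, adjusted p = 0.040). The median change of the list was 0.02. Replicate 1 was the highest of each group for Rrm2, and also for Ccna2 (19.7 to 50.7 CPM in hypoxia, 23.6 to 38.5 in normoxia) and Ccnb1 (21.3 to 53.2 and 26.1 to 45.3 CPM), cyclins of S phase and mitosis. Ccna2 changed by -0.20 (SE 0.23, adjusted p = 0.55), Ccnb1 by -0.03 (SE 0.24, adjusted p = 0.93) and Cdk1, the mitotic kinase, by 0.09 (SE 0.17, adjusted p = 0.72). With the replicate block 2 were called (11.8%, against 46.0% of all genes). The added gene was Top2a, a topoisomerase of dividing cells, chosen here after its values were seen (0.51, adjusted p = 0.070 without and 3.5e-06 with the block). When GC content and length were also corrected for, 5 were called (29.4%, against 43.2% of all genes). Rrm2 and Top2a were higher and 3 genes were lower, namely Ccna2 (-0.31, adjusted p = 0.0040) and, chosen after their values were seen, Mcm6 (-0.17, adjusted p = 0.021), a subunit of the replicative helicase, and Tyms (-0.25, adjusted p = 0.027), which makes thymidylate.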

How the data were processed

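RNA-seq counts of 4 hypoxia and 4 normoxia samples were analysed. Single-end reads of total RNA were aligned by the authors to mm10 with STAR, run through zUMIs with samtools, and assigned to Ensembl genes by featureCounts. The authors deposited raw counts per gene, which are whole numbers and not normalized. Whether counting used strand or reads that map to several places is not given in the sources used here. Symbols, positions, exon lengths and transcript GC content came from GENCODE M21 (GRCm38), which gave a symbol for 53360 of 53465 genes.

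The filterByExpr function of edgeR 4.0.16 (minimum count 5) kept 14369 genes with 99.9% of the counts. Log2 CPM values with TMM factors and a prior count of 3 were compared by limma-trend (limma 3.58.1, R 4.3.3) without covariates, as in the study's methods, which do not state the normalization. P-values were adjusted by Benjamini-Hochberg over all tested genes with a threshold of 0.05. The plotted and quoted CPM values carry no prior count. Replicates are samples that the study calls biologically independent.

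Replicates are numbered 1 to 4 in either group, and the study divided sorted cells between the conditions. Deviations from the group means correlated at 0.474, 0.275, 0.249 and 0.172 between same-numbered samples, so that the numbers were taken as pairs and a replicate block was fitted as an alternative. Other alternatives were edgeR's quasi-likelihood test, DESeq2 1.42.0, limma-voom, other normalizations, filters and prior counts, leaving out each sample, and a spline correction (5 degrees of freedom each) for transcript GC content and length over 14353 genes. The block without each pair and levels per longest transcript were added after the data were seen. The tests were also run on simulated data, where some of them missed the recovery first required over all changed genes, and the requirement was then limited to genes with higher counts.

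At these depths 3 counts, taken as a floor for counting error only, correspond to 0.119 to 0.233 CPM. The genes of the set and the 9 lists were chosen with earlier results of these data known. Of each list the called genes were named, and genes in list order up to 4, and other genes are named as chosen after their values were seen or because they overlap a gene of the set.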

Additional observations from a re-analysis of the deposited data

Results flagged for a closer look

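Of the 20 sets of 4 values examined (10 genes in 2 groups), 1 held a sample far from the others, and about 1 would be so by chance. This was Cdkn2a in hypoxia, where replicate 1 stood at 5.82 on the log2 CPM scale and the other 3 samples at 6.11 to 6.13. Its gap to the nearest sample was 0.943 of the range of the group, above Dixon's critical value of 0.829. Replicate 1 was also the most deeply sequenced library, and the normoxia sample of the same number was the lowest of its group. The part of either in this value was not tested.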

How the results depend on the processing

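Ccnd3 and Cdk4 kept their direction and call under all 24 alternatives, and Cdkn2a under 23. The count of genes of the set called higher (0) became 1 with the replicate block and with the GC and length correction, and 2 with both together or with total count scaling. It was 0 to 1 when single samples were left out, with 1 (Ccnd1) only without hypoxia replicate 3. The count called lower (3) became 5 with the block and the correction together, and was 3 to 4 without single samples. In the block fits without 1 pair, which were added after the data were seen, 0 to 1 were higher and 3 to 5 lower. Of the 63 genes of the lists, the 17 higher became 9 with the correction, and ranged from 10, without normoxia replicate 3, to 19 without single samples, and from 19 to 21 in block fits without 1 pair. The 2 lower became 4 with the block, 10 with the block and the correction, 5 with the correction, 1 with limma-voom, and 4 with relative log expression or upper-quartile normalization. They were 1 to 3 without single samples, with 1 without hypoxia replicate 2, normoxia replicate 1 or normoxia replicate 3, and 2 to 5 in block fits without 1 pair. The calls over all tested genes moved with the setting as well. Called higher were 2592 of 14369 in the main fit, 3342 with the block and 3611 with total count scaling. With the correction they were 2173 of 14353, or 3109 with the block as well, and 2032 of 14583 without normoxia replicate 3. Called lower were 2378 in the main fit, 3268 with the block and 3093 with the block and the correction. With the correction, with or without the block, Cdkn2d changed sign to 0.10 and Ccnd2 came to 0. The share of Ccnd2 among D-type cyclins differed by -0.517 percentage points by exon length, by 0.0939 in raw counts and by 0.0545 per longest transcript, and that of Ccnd3 by -1.25 and, per longest transcript, by -1.93. The cause of these shifts was not tested. The replicate block changed the calls of 2 genes of the set, Ccnd1 and Cdkn2c. Cdkn2d had the fewest counts of the set.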
